A study of Rattus norvegicus with 8 samples.

Results

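Early-response genes are transcribed within minutes of a stimulus and need no new protein synthesis to be switched on. The 10 described here were measured in burned and unburned rat skin. They are the zinc-finger factors Egr1, Egr2 and Egr3, the orphan nuclear receptors Nr4a1, Nr4a2 and Nr4a3, and Arc, Myc, Klf4 and Btg2. They were chosen by gene identifier from a fixed list, drawn up with earlier results of these data known. All 10 of the 10 were present among the 26404 genes of the count table. Poly(A)-enriched RNA came from the dorsal hind paw skin of Sprague-Dawley rats of 125 to 200 g anaesthetised with urethane at 1.5 g/kg and kept at 37 °C. All animals received 40 mg of pentobarbital before the skin was taken. In the burn group (4 libraries) a paw had been dipped for 2 min into saline at 60 °C, giving a deep partial-thickness burn. In the control group (4 libraries) the opposite paw had been held in saline at room temperature. All skin came from sites where a microdialysis probe had been placed, in both groups. The sources used here state neither the interval from burn to excision nor the animal behind each library. Burn and control libraries may come from the same animals, and every test here treats them as independent. The p-values therefore measure the spread between these 8 samples, which may in part be technical.

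The EGR proteins bind GC-rich DNA through zinc fingers and pass short-lived growth factor, stress and injury signals on to later genes. Their promoters are classic targets of serum response factor, which binds the CArG box, and of CREB, which binds the cAMP response element. The NR4A receptors are orphan nuclear receptors whose activity is set mainly by how much of them is made, and cAMP signalling induces them strongly. In skin, EGR1 is known for its rise after wounding, and KLF4 is required for the barrier of the upper epidermis.

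The EGR and NR4A genes form the within-family comparisons below. As examples from these families, the stretches before the start sites of Egr1, Egr2 and Nr4a1 are shown. They are RefSeq sequences of the rat build GRCr8, a later build than the one the counts used. Each runs 5′ to 3′ on the gene's strand and ends at the base before the start site. Capitals mark a CArG box or the letters TGACG on either strand, which read CGTCA on the opposite one.
Egr1, chr18:26736918-26737077, plus strand: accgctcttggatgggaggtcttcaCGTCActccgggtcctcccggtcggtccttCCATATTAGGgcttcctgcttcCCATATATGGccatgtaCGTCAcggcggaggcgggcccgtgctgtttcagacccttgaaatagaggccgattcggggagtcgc
Egr2, chr20:21054442-21054601, minus strand: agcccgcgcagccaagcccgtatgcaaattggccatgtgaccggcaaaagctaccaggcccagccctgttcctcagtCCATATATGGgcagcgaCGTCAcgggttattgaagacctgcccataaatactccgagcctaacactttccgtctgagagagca
Nr4a1, chr7:134259888-134260137, plus strand: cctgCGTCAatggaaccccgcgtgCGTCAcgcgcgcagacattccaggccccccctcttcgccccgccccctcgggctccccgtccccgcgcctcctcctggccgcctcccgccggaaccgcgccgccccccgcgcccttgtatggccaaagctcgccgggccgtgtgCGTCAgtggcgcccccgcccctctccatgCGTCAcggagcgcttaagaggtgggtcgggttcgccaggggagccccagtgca

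Egr1 and Egr2 hold the same CArG box, CCATATATGG, starting 83 bases before the start in both. In both it is followed by a CGTCA that starts 66 bases before the start. Egr1 has a further CArG box, CCATATTAGG, starting 105 bases before the start, and a further CGTCA at 135. Nr4a1 holds 4 copies of CGTCA and no CArG box in the window of 250 bases before to 50 after the start. Of the members, 6 had a promoter in the table by symbol: these 3 and Nr4a2, Klf4 and Btg2. The others are Egr3, Nr4a3, Arc and Myc. A CArG box was found in 2 of the 6, against 1.64% of the 33469 rat promoters of that length. The letters TGACG were found in 5 of the 6, Klf4 being without them, against 21.2% of promoters. The full element TGACGTCA, which contains TGACG on both strands, was found in Btg2 alone of the 6, 201 bases before the start, and in 1.83% of promoters. The EGR site GCGGGGGCG was found in Nr4a1 alone of the 6 and in 2.73% of promoters. None of the 6 held GCGTGGGCG (0.544% of promoters), the NR4A site AAAGGTCA (1.43%) or the heat shock element, 3 alternating inverted repeats of GAA (0.798%). TATAAA was found in Klf4 alone of the 6 (14.2%). Both strands were searched for each, and a match is a description of letters, not of a bound site.

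Libraries held 13693811 to 18738652 counts in burn and 17824830 to 26837925 in control. A gene with 0 counts could have been present at up to 0.219 CPM (counts scaled to a common total) in the shallowest library. Burn replicate 3 stood apart, with 625 genes at 1 to 3 counts where the other 7 libraries had at least 1642. The log2 fold change of each member without it is given below. Levels are CPM after TMM scaling, which corrects for differences in composition between libraries, and serve to compare libraries for 1 gene, not genes with one another. Whether the mix of cell types differed between the libraries was not tested. In whole skin, fewer cells of a type and less RNA per cell cannot be told apart.

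Across the 10 genes, 2 were higher in burned skin, Egr2 and Arc, and 0 were lower, at an adjusted p under 0.05 in the edgeR quasi-likelihood test. Over all 14240 genes tested the same rule called 21.9%, with 11.9% higher and 10.01% lower. The count of members called was thus near the background. Of all genes called, 54.2% were higher in burned skin, and 29.5% with plain library sizes in place of TMM. An unadjusted p under 0.05 was found for the same 2 members and for 37.8% of all genes. DESeq2 also called 2 members higher and 0 lower, and 32.2% of all genes. Plain library sizes, limma voom and voom with sample quality weights each called 1 member higher, and 6.28%, 10.8% and 15.8% of all genes. The weighted fit called 1 member and 14.96% of all genes lower. The median log2 fold change was 0.39 over the members and 0.06 over all genes tested, and the median size without regard to sign was 0.52 and 0.53. All 10 members passed the filter on low counts.

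**Figure D1:**
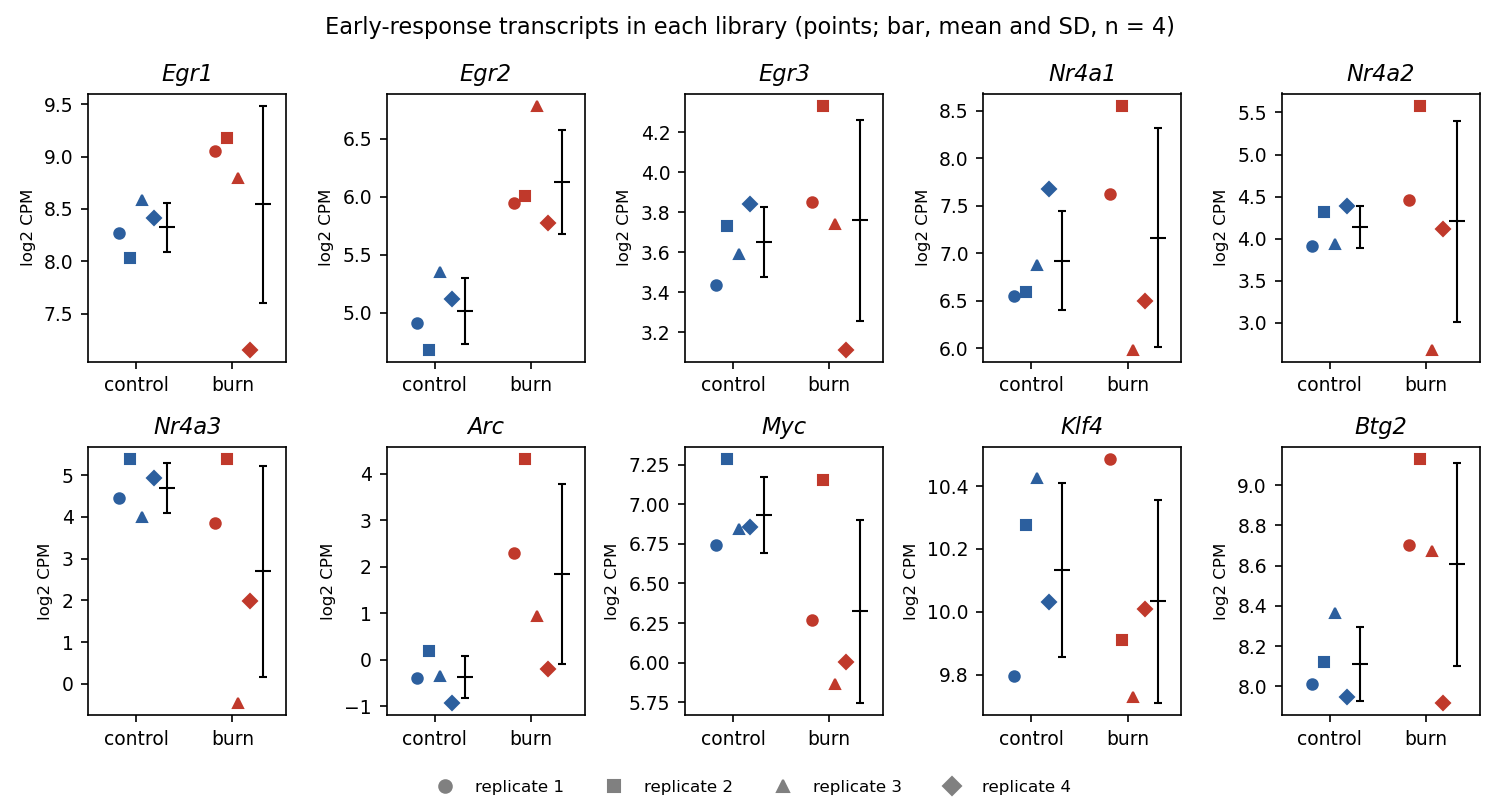
Normalised level (log2 CPM, a separate axis range for each gene) of the 10 transcripts in each library, blue for control and red for burn, with the marker shape giving the replicate and the bar the mean and SD (n = 4). Only for Egr2 do all 4 burn points lie above all 4 control points, and burn replicate 2, the square, is the highest burn library for 8 of the 10 genes.

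Egr2 (ENSRNOG00000000640), which is also known for its part in myelinating Schwann cells and in hair follicles, was the member that separated the groups. Its level in burn replicates 1 to 4 was 61.7, 64.1, 110.3 and 54.7 CPM. In control replicates 1 to 4 it was 30.0, 25.5, 40.6 and 34.6 CPM. All 4 burn libraries lay above all 4 controls, and burn replicate 3 was the highest. Such separation in either direction was found for 31.01% of all genes tested (15.4% higher and 15.6% lower in burn) and for 1 of the 10 members. The mean was 6.13 ± 0.45 log2 CPM in burn and 5.01 ± 0.29 in control (SD, n = 4). The fitted fold was 2.23, with a 95% interval of 1.49 to 3.33 (log2 fold change 1.15, SE 0.26, edgeR adjusted p = 0.0165). Without burn replicate 3 the log2 fold change was 0.88 (edgeR adjusted p = 0.0103). The call was lost without control replicate 1 (edgeR adjusted p = 0.0547), without control replicate 2 (0.0590), and with plain library sizes in place of TMM (0.0741). Without control replicate 1 or 2, calls over all genes also fell, from 3115 to 1515 and 1219.

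Egr1 (ENSRNOG00000019422), the founding member of the family and the one most used as a marker of early response, was high in 3 burn libraries and low in the other. Burn replicates 1 to 4 held 533, 578, 444 and 143 CPM. Control replicates 1 to 4 held 308, 262, 385 and 341 CPM. Burn replicates 1, 2 and 3 were above every control and burn replicate 4 was below every control. The log2 fold change was 0.39 (SE 0.38, edgeR adjusted p = 0.491), and the 95% interval of the fold ran from 0.719 to 2.38. Without burn replicate 4 the log2 fold change was 0.67 and still missed the threshold (edgeR adjusted p = 0.0551). Without burn replicate 2 it was 0.20 (edgeR adjusted p = 0.726), and without burn replicate 3 it was 0.36 (0.547). Voom with sample quality weights turned it to -0.17 (adjusted p = 0.766). The spread was 0.94 log2 units in burn and 0.23 in control (SD, n = 4).

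Egr3 (ENSRNOG00000017828), which muscle spindles need to form, was the EGR gene with the smallest difference. The burn libraries held 14.3, 20.1, 13.3 and 8.55 CPM, and the controls 10.7, 13.2, 12.0 and 14.2 CPM, in replicate order. The groups overlapped, with burn replicate 2 the highest of all 8 libraries and burn replicate 4 the lowest. The fold was 1.12 with a 95% interval of 0.74 to 1.70 (edgeR adjusted p = 0.684). It turned to a log2 value of -0.06 with plain library sizes or without burn replicate 2. Without burn replicate 3 the log2 value was 0.19 (edgeR adjusted p = 0.646).

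Whether the EGR genes differed from one another in their response was asked with the ratio of their counts within each library, which no scaling of libraries can change. The ratio also reflects gene length, so only its change between libraries is read. Egr2 counts were 9.72%, 9.74%, 10.6% and 10.1% of Egr1 counts over the control replicates in order. Over the burn replicates they were 11.6%, 11.1%, 24.9% and 38.3%. All 4 burn values lay above the control values, by little in burn replicates 1 and 2 and by more in burn replicates 3 and 4. Burn replicate 3 had the most Egr2, and burn replicate 4 the least Egr1. The mean log2 ratio was -2.42 ± 0.87 in burn and -3.32 ± 0.06 in control (SD, n = 4), a difference of 0.90. A two-sided exact permutation test gave p = 0.0286, the smallest that 4 against 4 allows, and 0.0571 after Benjamini-Hochberg adjustment over the 4 within-family ratios tested. An adjusted value under 0.05 would need at least 3 of the 4 ratios at this smallest p, so missing the threshold says little here. The difference was 0.55 without burn replicate 4 and 0.76 without burn replicate 3. With any 1 burn library left out the exact permutation p stayed at 0.0286 (0.0571 adjusted). With any 1 control left out the difference was 0.88 to 0.92, and the exact permutation p rose to 0.171 (0.343 adjusted), although the groups still did not overlap. When every other gene tested was set against Egr1 in the same way, 6.66% of them gave ratios that did not overlap between the groups.

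The ratio of Egr3 to Egr1 overlapped between the groups. It was 2.69%, 3.47%, 2.99% and 5.99% over the burn replicates in order. Over the control replicates it was 3.48%, 5.04%, 3.11% and 4.18%. The difference in the mean log2 ratio was -0.11 (two-sided exact permutation test, p = 0.714, and 0.714 adjusted over the 4 ratios). With burn replicate 1 or control replicate 2 left out it turned to 0.03 or 0.02.

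**Figure D2:**
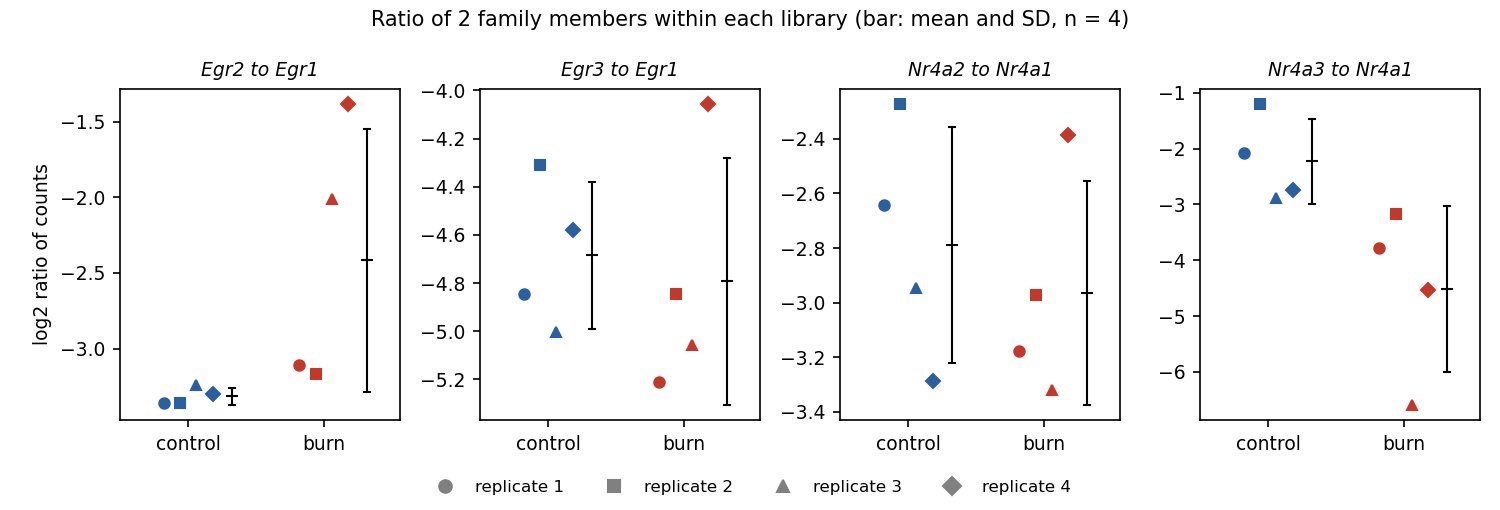
Log2 ratio of the counts of 2 genes of a family within each library, for Egr2 and Egr3 against Egr1 and for Nr4a2 and Nr4a3 against Nr4a1, blue for control and red for burn, marker shape for the replicate and bars for the mean and SD (n = 4). Egr2 to Egr1 is higher in all 4 burn libraries than in any control and Nr4a3 to Nr4a1 is lower, and the other 2 ratios overlap.

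The 3 NR4A transcripts had the same order over the burn libraries, and none passed the threshold. Nr4a1 (ENSRNOG00000007607), also called Nur77 and known from T cell death and macrophage restraint, held 198, 375, 63.2 and 89.9 CPM in burn replicates 1 to 4. The controls held 93.4, 96.1, 117 and 204 CPM in replicate order. Burn replicate 2 was above every control, burn replicates 3 and 4 were below every control, and burn replicate 1 was within the control range. The log2 fold change was 0.51 (SE 0.54, edgeR adjusted p = 0.521), with a 95% interval of the fold of 0.614 to 3.29. Without burn replicate 2 it turned to -0.13, and without burn replicate 3 it was 0.79 (edgeR adjusted p = 0.238).

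Nr4a2 (ENSRNOG00000005600), or Nurr1, which midbrain dopamine neurons need, showed the same order of burn libraries. It was at 21.8, 47.8, 6.30 and 17.2 CPM over the burn replicates in order, and at 14.9, 19.9, 15.2 and 20.8 CPM over the controls. Burn replicates 1 and 2 lay above every control and burn replicate 3 below every control. The highest burn library held 7.58 times the lowest, and the highest control 1.40 times the lowest. The fold was 1.31 with a 95% interval of 0.598 to 2.88 (edgeR adjusted p = 0.601). Without burn replicate 2 the log2 fold change turned from 0.39 to -0.24, and without burn replicate 3 it was 0.70 (edgeR adjusted p = 0.158).

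Nr4a3 (ENSRNOG00000005964), or NOR-1, had the widest spread among the members. Burn replicates 1 to 4 held 14.3, 41.7, 0.63 and 3.85 CPM, from 165, 630, 12 and 64 counts. Control replicates 1 to 4 held 21.9, 41.7, 15.8 and 30.6 CPM, from 563, 1204, 320 and 854 counts. Burn replicate 2 and the highest control were equal to the digits given, with the burn library slightly above, and the other 3 burn libraries were below every control. The lowest, burn replicate 3, held 0.754 unscaled CPM, with an exact 95% binomial interval of 0.39 to 1.32 that covers counting error only. The highest burn library held 66.3 times the lowest, and the highest control 2.64 times the lowest. The burn SD of 2.52 log2 units was larger than that of 99.1% of the genes tested. The fitted log2 fold change was -0.87 (SE 0.94, edgeR adjusted p = 0.533), and the 95% interval of the fold, 0.127 to 2.38, reached from a large fall to a rise. The mean log2 CPM was 2.69 in burn and 4.69 in control, farther apart than in the fit, which averages on the count scale, where burn replicate 2 holds 630 of the 871 burn counts. Without burn replicate 2 the log2 fold change was -2.16 (edgeR adjusted p = 0.0877), and without burn replicate 3 it was -0.47 (0.641).

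Set against Nr4a1 in the same library, Nr4a3 was scarcer in every burn library. Nr4a3 counts were 7.25%, 11.1%, 0.997% and 4.29% of Nr4a1 counts in burn replicates 1 to 4. They were 23.5%, 43.4%, 13.5% and 15.0% in control replicates 1 to 4. The nearest values of the groups were 11.1% in burn replicate 2 and 13.5% in control replicate 3. The mean log2 ratio was -4.52 ± 1.49 in burn and -2.23 ± 0.77 in control (SD, n = 4), a difference of -2.29, or a 4.89-fold lower ratio. The two-sided exact permutation p was 0.0286, the smallest possible, and 0.0571 adjusted over the 4 ratios. Without burn replicate 3, the library with few low counts, the difference was -1.60. With any 1 burn library left out the exact permutation p stayed at 0.0286 (0.0571 adjusted). With any 1 control left out the difference was -2.51 to -1.95, and the exact permutation p rose to 0.0571 (0.229 adjusted), although the groups still did not overlap. Of all other genes tested, 8.06% had a ratio to Nr4a1 that did not overlap between the groups.

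The ratio of Nr4a2 to Nr4a1 did not separate the groups. It was 11.0%, 12.7%, 9.97% and 19.1% over the burn replicates in order. Over the control replicates it was 15.98%, 20.7%, 13.0% and 10.2%. The difference of the mean log2 ratio was -0.18 (two-sided exact permutation test, p = 0.514, and 0.686 adjusted over the 4 ratios). Without control replicate 2 it was -0.01 and without burn replicate 4 it was -0.37.

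Arc (ENSRNOG00000043465), a cytoskeleton-associated protein best known as an activity-induced transcript of neurons, gave the largest fold change among the members from the fewest counts. Burn replicates 1 to 4 held 55, 299, 35 and 13 counts, or 4.78, 19.8, 1.84 and 0.783 CPM. Control replicates 1 to 4 held 17, 30, 14 and 12 counts, or 0.663, 1.04, 0.692 and 0.430 CPM. Burn replicates 1, 2 and 3 were above every control, and burn replicate 4 was within the control range. The lowest burn value was 0.699 unscaled CPM, with an exact 95% binomial interval of 0.372 to 1.20, and the highest control value, 1.12, had one of 0.754 to 1.60. These intervals overlap.

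The fitted fold of Arc was 9.54 with a 95% interval of 2.18 to 41.6 (log2 fold change 3.25, SE 0.94, edgeR adjusted p = 0.0390). The mean log2 CPM was 1.84 ± 1.93 in burn and -0.37 ± 0.45 in control (SD, n = 4). This difference of 2.21 is smaller than that of the fit, which averages on the count scale. Burn replicate 2 held 299 of the 402 burn counts. Without it the log2 fold change was 1.78 and the call was lost (edgeR adjusted p = 0.0738). The call was also lost without burn replicate 1, where the log2 fold change was 3.39 (edgeR adjusted p = 0.0677). Without control replicate 1, 2, 3 or 4 it was 3.22, 3.50, 3.24 and 3.07, and the call was lost each time (edgeR adjusted p = 0.0977, 0.0880, 0.0916 and 0.104). Apart from burn replicate 2, losing these libraries thus ended the call while the fold stayed near that of all 8. Calls over all genes also fell without control replicates 1 to 4, from 3115 to 1515, 1219, 1786 and 1523. The loss is therefore not particular to Arc. The call held without burn replicate 3, at a log2 fold change of 3.57 (edgeR adjusted p = 0.0231), and without burn replicate 4 (0.0221). In limma voom the log2 fold change was 2.23 and missed the threshold (adjusted p = 0.169), as it did with sample quality weights (1.65, adjusted p = 0.140).

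**Figure D3:**
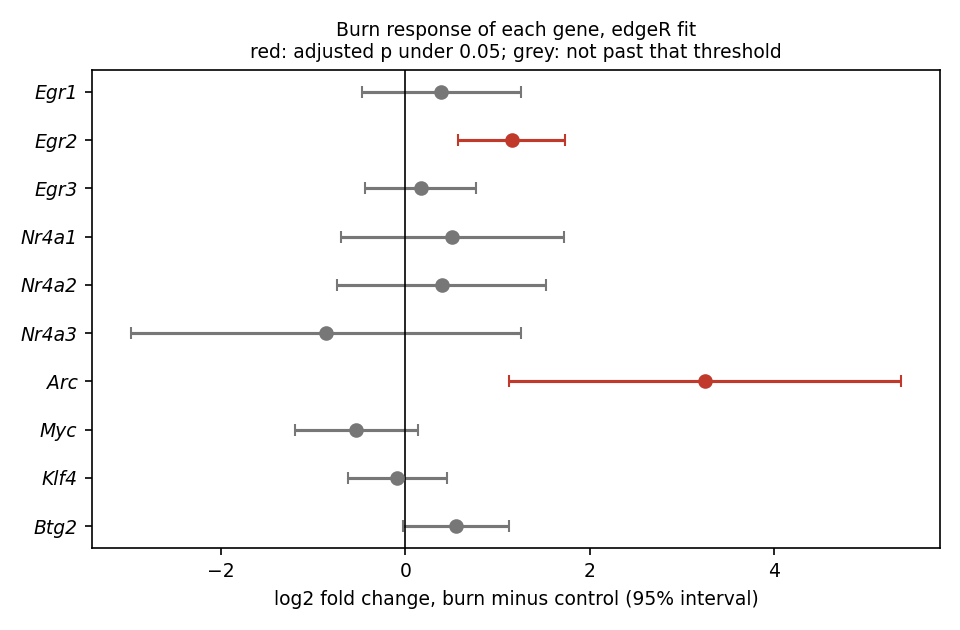
Fitted log2 fold change, burn minus control, of each gene (point) with its 95% interval (bar) from the edgeR fit of 4 burn and 4 control libraries, red where the adjusted p was under 0.05 and grey elsewhere. Egr2 at 1.15 and Arc at 3.25 have intervals above 0, and the intervals of Arc and Nr4a3 are the widest.

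Myc (ENSRNOG00000004500), the growth-promoting basic helix-loop-helix factor, had 3 of 4 burn libraries below every control. The burn libraries held 76.9, 142, 58.3 and 64.2 CPM in replicate order, and the controls 107, 156, 115 and 116 CPM. Burn replicate 2 was the exception and lay within the control range. The fold was 0.692 with a 95% interval of 0.436 to 1.10 (log2 fold change -0.53, SE 0.29, edgeR adjusted p = 0.218). Without burn replicate 2 the log2 fold change was -0.90 and passed the threshold (edgeR adjusted p = 0.0151). Voom with sample quality weights also called it lower, at -0.64 (adjusted p = 0.0479). The other 15 of the 17 settings did not call Myc. Without burn replicate 3 its log2 fold change was -0.39 (edgeR adjusted p = 0.331).

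Klf4 (ENSRNOG00000016299), a zinc-finger factor of differentiating keratinocytes, overlapped throughout. Burn replicates 1 to 4 held 1434, 962, 849 and 1029.9 CPM, and control replicates 1 to 4 held 889, 1240.05, 1375 and 1045 CPM. Burn replicate 1 was the highest of the 8 and burn replicate 3 the lowest. The fold was 0.94 with a 95% interval of 0.647 to 1.36 (edgeR adjusted p = 0.812). This interval was the narrowest of the members and excludes a doubling in either direction.

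Btg2 (ENSRNOG00000003300), an antiproliferative partner of the mRNA deadenylase complex and a p53 target, followed the order of Egr1. It was at 416, 560.3, 408 and 242 CPM over the burn replicates in order and at 258, 278, 329 and 247 CPM over the controls. Burn replicates 1, 2 and 3 were above every control and burn replicate 4 below every control. The fold was 1.46 with a 95% interval of 0.984 to 2.17 (log2 fold change 0.55, SE 0.25, edgeR adjusted p = 0.147). Without burn replicate 4 the log2 fold change was 0.73 and passed the threshold (edgeR adjusted p = 0.0430). Without burn replicate 2 it was 0.35 (edgeR adjusted p = 0.274), and without burn replicate 3 it was 0.54 (0.160). Voom with sample quality weights gave 0.27 (adjusted p = 0.384).

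The SD of log2 CPM was larger among burn than among control libraries for 84.0% of all genes tested and for all 10 members. The wider spread was thus not confined to the members. The burn libraries did not share it evenly. Pairs with burn replicate 3 had a chi-square of 437 to 751 per degree of freedom over all genes, and the other burn pairs 112 to 180. The median SD of the members was 0.76 in burn and 0.26 in control, against 0.52 and 0.25 over all genes tested. Burn replicate 2 was the highest burn library for 8 of the 10 members and for 33.7% of all genes tested. The exceptions were Egr2, highest in burn replicate 3, and Klf4, highest in burn replicate 1. The lowest burn library was replicate 4 for Egr1, Egr2, Egr3, Arc and Btg2, and replicate 3 for Nr4a1, Nr4a2, Nr4a3, Myc and Klf4. Replicate 4 was the lowest for 15.7% of all genes tested and replicate 3 for 39.9%. These places are those of levels after TMM. By unscaled CPM, Egr1 and Btg2 were highest in burn replicate 3, Klf4 was lowest in burn replicate 2 and Myc in burn replicate 4.

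The full order of the burn libraries was shared within 2 sets of 4 genes, which were noticed after the values were seen. Egr1, Egr3, Arc and Btg2 fell in the order of replicates 2, 1, 3 and 4, as did 2.24% of all genes tested. Nr4a1, Nr4a2, Nr4a3 and Myc fell in the order 2, 1, 4 and 3, as did 9.80% of all genes tested. Both orders rest on levels after TMM, whose factors were 0.843, 0.807, 1.20 and 0.894 in burn replicates 1 to 4. By unscaled CPM, Arc, Nr4a1, Nr4a2 and Nr4a3 kept their order. Egr1 and Btg2 then fell in the order 3, 2, 1 and 4, and Egr3 and Myc in the order 2, 3, 1 and 4. Genes of 1 library share its depth, tissue piece and scaling, so these orders are a description and were given no test.

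Counted by library, burn replicate 2 had 8 members above every control and 0 below, and burn replicate 1 had 7 above and 2 below. Burn replicate 3 had 4 above (Egr1, Egr2, Arc and Btg2) and 5 below. Burn replicate 4 had 1 above, Egr2, and 6 below. Over all genes tested the shares above every control were 38.0%, 38.5%, 39.1% and 36.1% over the burn replicates in order, and the shares below were 37.9%, 36.7%, 42.8% and 34.8%. The members were thus divided differently from one burn library to the next while the shares over all genes were alike. These counts use levels after TMM, and some rest on small gaps from the nearest control. Such gaps were 41.74 against 41.70 CPM for Nr4a3 in burn replicate 2 and 14.33 against 14.25 for Egr3 in burn replicate 1. For Btg2 in burn replicate 4 the values were 241.7 against 247.0. Egr2 was the only member above every control in each burn library.

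**Figure D4:**
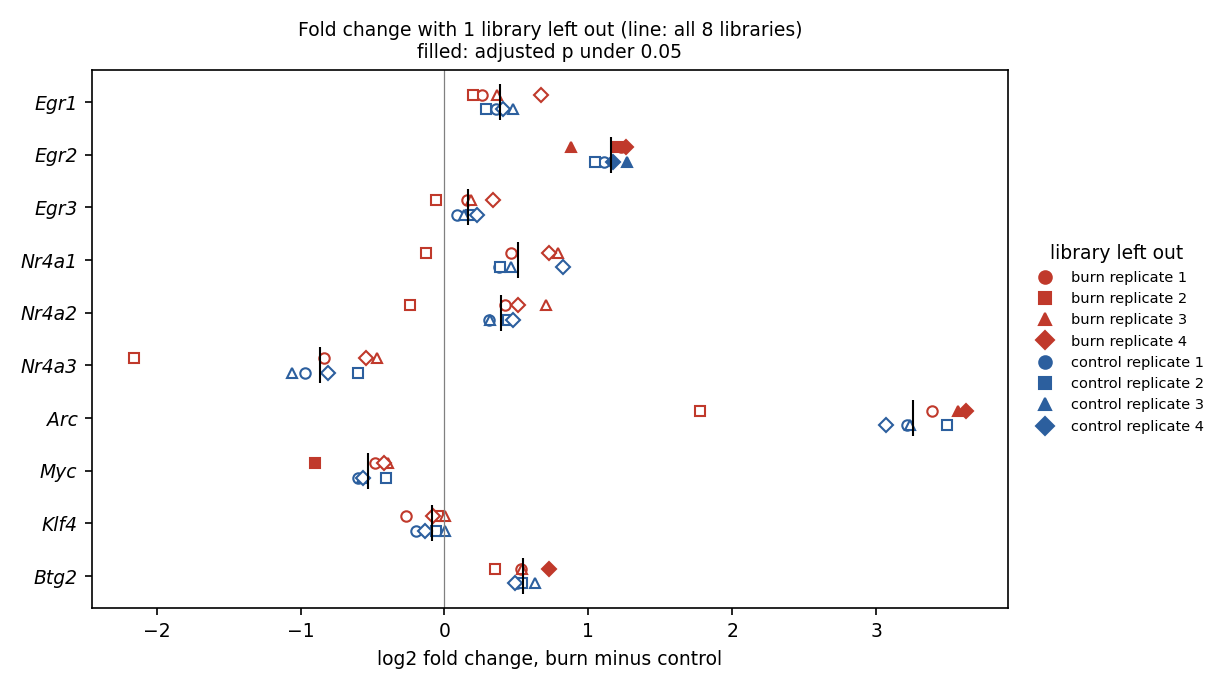
Fitted log2 fold change, burn minus control, of each gene when 1 library was left out, with red markers for a burn and blue for a control library, the shape giving the replicate, filled markers an adjusted p under 0.05 and the vertical line the fit of all 8 libraries. Leaving out burn replicate 2 moves Arc from 3.25 to 1.78 and Nr4a3 from -0.87 to -2.16, and only Egr2 is past the threshold in 6 of its 8 refits.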

How the data were processed

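The authors deposited raw read counts, whole numbers in a table of Ensembl rat genes with a column for each library. Per the submitters' processing notes, TopHat2 2.0.9, HTSeq 0.5.4p3, edgeR, R 3.0.1, limma and the build Rnor_5.0 were named. The sources used here give neither their roles nor the annotation and strand setting, so reads of overlapping or antisense genes could not be separated. Groups came from the treatment labels, and replicate numbers follow accession order and were not used to pair samples. Since the labels name no animals, any pairing of paws was not modelled. Libraries of a group were distinct, with a chi-square of at least 28.3 per degree of freedom between any pair.

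The 10 genes were matched by identifier with the symbols of the list. The members and lists were chosen with earlier results of these data known. The named genes are all 10 members. The reference holds 0 Ensembl identifiers among 47357 genes, so other early-response genes and cell type markers were not analysed here. Protein sequences were not used here.

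All 14240 genes passing edgeR's default filter were fitted with edgeR 4.0.16 in R 4.3.3 (quasi-likelihood test, robust, TMM, group alone, Benjamini-Hochberg over all genes). The SE is the log2 fold change divided by the square root of F, and log2 CPM used a prior count of 2. Ratios used 0.5 added to each count. The alternatives were median-ratio or plain library scaling, other filters, DESeq2 1.42.0, voom in limma 3.58.1, thinning to 13693811 counts, a threshold of 0.01 and leaving out each library. In data simulated for the same comparison, 200 genes were changed and 14035 genes were fitted. The fit recovered 96.9%, 72.3% and 7.58% of the genes changed 16-fold, 4-fold and 2-fold. In the real data 3115 genes were called, and with fewer changed genes the adjusted threshold is stricter. These shares therefore do not give the power of the test here. A missed threshold alone does not exclude a 2-fold change.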

Additional observations from a re-analysis of the deposited data

How the results depend on the processing

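No paired analysis was possible because the labels give no animal number. Of the settings that kept all 8 libraries, plain library sizes, limma voom and voom with quality weights each called 1 member higher in place of 2, and the weighted fit called 1 lower in place of 0, near its share over all genes. An adjusted p of 0.01 called 0 higher, by construction. Over all genes, 1689 were higher and 1426 lower. Plain library sizes gave 894 higher and 2138 lower and moved the median of all genes from 0.06 to -0.15. DESeq2 gave 2379 higher and 2203 lower, and the threshold of 0.01 gave 412 and 267. With 1 library left out, members called ranged from 0 to 3 higher and from 0 to 1 lower, and all genes from 673 to 2314 higher and from 546 to 1929 lower. The 3 members came from the fit without burn replicate 4, which called 1517 of 14501 genes higher. No member was called without control replicate 1 or 2. Those 2 fits called 1515 of 14546 and 1219 of 14563 genes in either direction, against 3115 of 14240 with all 8 libraries. Over 17 settings Arc kept its direction and lost its call in 9, and Egr2 kept its direction and lost its call in 4. Apart from the smaller samples and the stricter threshold, the cause of these changes was not tested.

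Fold changes near 0 changed sign. Egr3 was at -0.065 with plain library sizes and -0.060 with weighted voom, and leaving out 1 library gave -0.060 (burn replicate 2) to 0.34. Nr4a2 was at -0.00016 with voom, Egr1 at -0.17 and Klf4 at 0.055 with weighted voom. Leaving out 1 library gave -0.27 to 0.0060 for Klf4 (0.0023 without burn replicate 3, the highest without control replicate 3), -0.13 to 0.82 for Nr4a1 and -0.24 to 0.70 for Nr4a2, both lowest without burn replicate 2. The difference in ratio ranged, with 1 library left out, from 0.55 to 1.15 for Egr2 to Egr1, from -0.35 to 0.031 for Egr3 to Egr1 (0.031 without burn replicate 1 and 0.016 without control replicate 2), from -0.37 to -0.01 for Nr4a2 to Nr4a1 and from -2.74 to -1.60 for Nr4a3 to Nr4a1. Levels and ratios were screened 28 times for a single outlying library, by its gap from the nearest library over the range of its group. A value above 0.829 was to be flagged, and 0 were. The largest was 0.811, for Egr1 in burn replicate 4. With 4 libraries per group only an extreme library can be flagged, so this does not show that none stood apart. Arc had 12 to 30 counts in each control library, and its call depended on the draw when libraries were thinned to the smallest. Over 20 random draws, a repeat chosen after seeing the data, Arc was called in 18 (log2 fold change 2.94 to 3.498, edgeR adjusted p = 0.0329 to 0.0532) and Egr2 in all 20 (1.13 to 1.22).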
